A study of Homo sapiens with 6 samples.

Results

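The RAF, MEK and ERK kinases, their scaffold KSR1 and the phosphatidylethanolamine-binding proteins PEBP1 and PEBP4 were described at the RNA level in a lenvatinib-resistant liver cancer line. These 8 genes, PEBP1, PEBP4, ARAF, BRAF, KSR1, MAP2K1, MAP2K2 and MAPK3, were taken by gene symbol from a table of 26184 genes and loci. They were chosen by name with their read counts in both cell lines already known, so their differences in RNA level between the lines are a description. Intervals show the spread between libraries, and nothing is read from how many of the 8 passed a threshold. RNA-seq was performed on 3 samples of each line, which were poly(A) libraries. Huh7 is a human hepatocellular carcinoma cell line. Huh7 P is the untreated parental line, and Huh7 LR was derived from it by continuous exposure to lenvatinib, raised from 1 to 20 μM over 10 months. Lenvatinib is an inhibitor of receptor tyrosine kinases, among them the VEGF and FGF receptors. Both lines are labelled wild type, and Huh7 LR is 1 derived line, so its 3 samples do not stand for separate derivations of resistance. The study calls the 3 samples of a line independent but does not say whether they came from separate passages, so p-values measure only the spread between these samples. Huh7 LR was kept in 20 μM lenvatinib after its derivation, and the drug in the medium of the sequenced samples is not stated separately. The libraries are called P1, P2 and P3 and LR1, LR2 and LR3.

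In this cascade, RAS bound to GTP brings RAF kinases to the membrane, RAF phosphorylates the MEK kinases, and MEK phosphorylates the ERK kinases. KSR1 is a RAF-related pseudokinase that holds RAF, MEK and ERK together. PEBP1, also called Raf kinase inhibitor protein, binds RAF and keeps it from phosphorylating MEK, and PEBP4 is a member of the same protein family. The cascade is controlled largely by phosphorylation, which RNA levels do not measure. In bulk RNA, fewer expressing cells and less RNA per cell cannot be told apart.

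Each library had between 62738937 and 71427573 counts, and a count of 0 in a library allows a level of up to 0.0418 to 0.0486 CPM (a read count per 1000000 counts, scaled by trimmed mean of M values). The 3 libraries of a line had Spearman correlations of 0.991 to 0.994 in Huh7 LR and 0.994 to 0.995 in Huh7 P. LR1 and LR2 lay at opposite ends of the second principal component, so values without each are given where they matter. Of 8 hepatocyte markers, 4 were higher in Huh7 LR (edgeR, adjusted p under 0.05) and the other 4 did not pass. Of all genes and loci tested, 23.3% were higher and 22.4% lower. The summed level of the 8 hepatocyte markers was 43498 to 52591 CPM in Huh7 P and 54989 to 58034 CPM in Huh7 LR. Summed fibroblast markers were at 2.16 to 2.28 CPM in Huh7 P and 5.02 to 8.02 CPM in Huh7 LR, leukocyte markers were at 1.99 to 2.24 and 2.15 to 3.997 CPM, and endothelial markers, nearly all PECAM1, were at 38.8 to 47.5 and 65.0 to 71.2 CPM. DCN, TYROBP, HLA-DRA, CDH5, KDR and TEK had no count in any library. The part of these markers in the differences below was not tested.

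Among the 8 genes, PEBP4 was detected in Huh7 LR alone, and KSR1 and MAP2K1 were lower in every Huh7 LR library than in every Huh7 P library. The other 5 genes overlapped between the lines. By the quasi-likelihood test of edgeR at an adjusted p under 0.05, 1 of the 8 genes was higher and 2 were lower, against 23.3% higher, 22.4% lower and 45.7% in either direction of the 17531 genes and loci tested. With more than 2-fold and an adjusted p under 0.001, 1 gene, PEBP4, was called, against 4.43% higher, 1.78% lower and 6.21% in either direction of all tested. The libraries of the lines did not overlap for 3 of the 8 genes and for 55.9% of all tested. The count of 2 lower genes, KSR1 and MAP2K1, did not hold when single libraries were left out. It was 0 to 2 without 1 library, and the count of higher genes was 1 to 3. Nothing is read from these counts, since the genes were chosen with this contrast known and PEBP4 entered the test only through its Huh7 LR counts. Of the 7 genes with counts in both lines, the median absolute log2 fold change was 0.12, beside 0.33 over all genes and loci tested, and none of the 7 exceeded 2-fold.

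**Figure D1:**
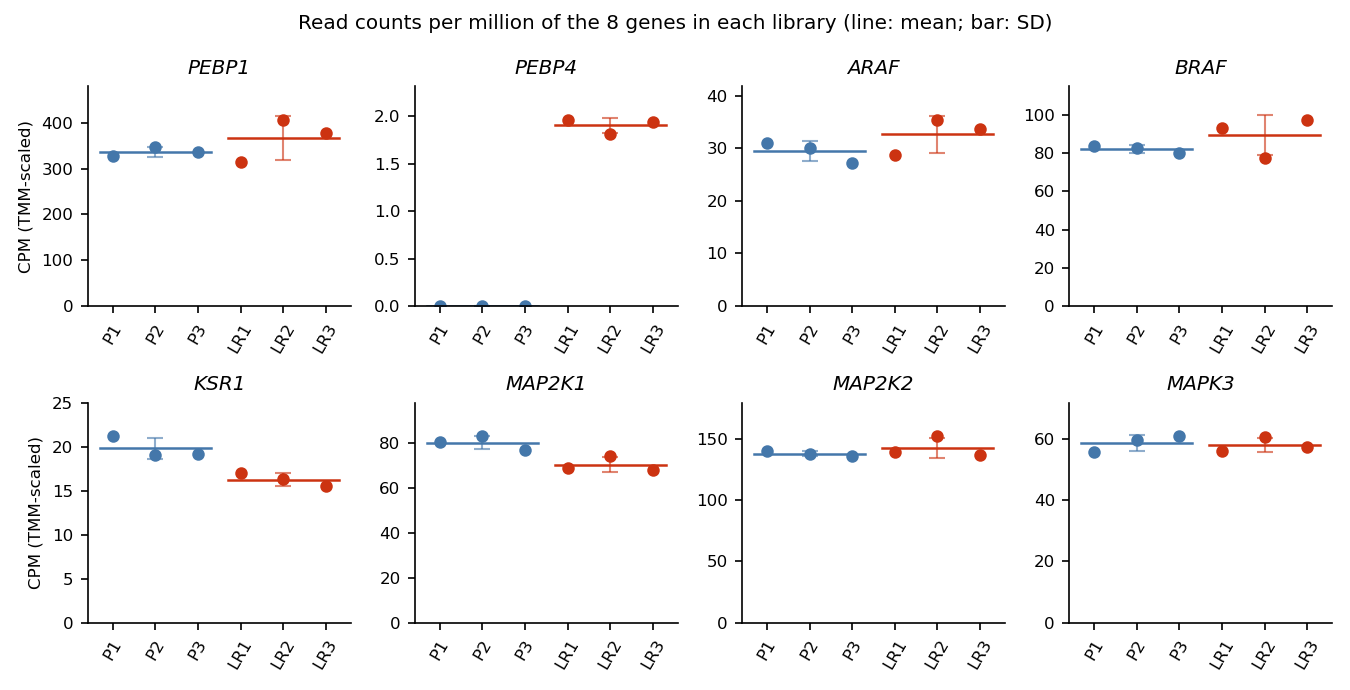
Scaled CPM (vertical axes, starting at 0) of the 8 genes in each of the 6 libraries, with the mean (line) and SD (bar) of each line in blue for Huh7 P and red for Huh7 LR. PEBP4 sits at 0 in Huh7 P and between 1.81 and 1.96 CPM in Huh7 LR, and only PEBP4, KSR1 and MAP2K1 show no overlap between the lines.

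PEBP1 was the most abundant of these RNAs. It lies on chromosome 12 (GRCh38, 118135858 to 118145584, plus strand). PEBP1 had 326, 347 and 335 CPM in P1, P2 and P3, and 315, 407 and 378 CPM in LR1, LR2 and LR3. LR1 was the lowest and LR2 the highest of all 6 libraries, so the lines overlapped. The log2 fold change in PEBP1 was 0.12 (SE 0.09, 95% interval -0.08 to 0.33, n = 3 per line). It was 0.22 without LR1 and 0.051 without LR2, so its size moved with both libraries, and it passed the threshold without LR1.

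PEBP4 differed from PEBP1 in both level and pattern. It lies on the minus strand of chromosome 8 (GRCh38, 22713251 to 23000000). PEBP4 had 0 counts in P1, P2 and P3, and 128, 127 and 132 counts in LR1, LR2 and LR3. These counts correspond to 1.96, 1.81 and 1.93 CPM, a mean of 1.90 ± 0.080 CPM (SD, n = 3). The Huh7 LR libraries were close to each other, and none of the Huh7 P libraries held a read. Against 3 counts in each of the Huh7 P libraries, the Huh7 LR level of PEBP4 was at least 41.9-fold higher. Per length, PEBP1 exceeded PEBP4 in Huh7 LR by 84.7-fold, 119-fold and 104-fold in LR1, LR2 and LR3.

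The PEBP4 exons share 322 of 1329 bases (24.2%) with RHOBTB2 on the opposite strand, and it is not stated whether counting used strand. RHOBTB2 had 1407, 1111 and 1258 counts in P1, P2 and P3, and 1539, 1720 and 1523 counts in LR1, LR2 and LR3. It was therefore read at least 1111 times in each Huh7 P library while PEBP4 was at 0 there. For each 100 RHOBTB2 counts, PEBP4 had 8.32, 7.38 and 8.67 counts in LR1, LR2 and LR3.

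The region around PEBP4 was then described through the 5 nearest protein-coding genes on each side. Of these 10 genes, 9 were tested, 3 were higher and none was lower in Huh7 LR (edgeR, adjusted p under 0.05), beside 23.3% higher and 22.4% lower of all genes and loci tested, and the Wald test of DESeq2 called 1 lower. At an unadjusted p under 0.05, 1 neighbour was lower in edgeR, CCAR2 (log2 fold change -0.19, edgeR adjusted p = 0.0652). Of the 3, 1 passed 2-fold with an adjusted p under 0.001, AC037459.1, which entered the test only through its Huh7 LR counts, so its call supports nothing here. It had 0, 0 and 1 counts in P1, P2 and P3, and 15, 15 and 23 counts in LR1, LR2 and LR3. Its ratio of summed counts per library size was 53.0 (exact 95% interval 9.10 to 2131, counting error only). AC037459.1 starts 124 kb below the lower end of PEBP4 and overlaps C8orf58 in position, and C8orf58 had a log2 fold change of 0.26 (SE 0.23, edgeR adjusted p = 0.397), which was 0.026 without LR1 and 0.46 without LR2.

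TNFRSF10D, a decoy receptor for the death ligand TRAIL, rose from 25.4, 28.9 and 26.7 CPM in P1, P2 and P3 to 37.9, 41.1 and 36.6 CPM in LR1, LR2 and LR3 (log2 fold change 0.51, SE 0.08, edgeR adjusted p = 4.32e-04). RHOBTB2 rose by 0.31 on the log2 scale (SE 0.08, edgeR adjusted p = 0.0100), and was at 0.28 without P2, where it did not pass (edgeR adjusted p = 0.0651). The TRAIL receptor gene TNFRSF10B had a log2 fold change of 0.19 (edgeR adjusted p = 0.0507) and passed under several other settings. It was at 0.13 without LR1 and 0.23 without LR2, and did not pass without P1, P2, P3, LR1 or LR3. BIN3 was at 0.03, TNFRSF10C at 0.14 and AC107959.5 at 0.51 on the log2 scale, with edgeR adjusted p of 0.862, 0.850 and 0.636. EGR3, an immediate-early transcription factor gene, had 0 counts in each Huh7 P library and 2, 9 and 3 counts in LR1, LR2 and LR3, and was too low to be tested.

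**Figure D2:**
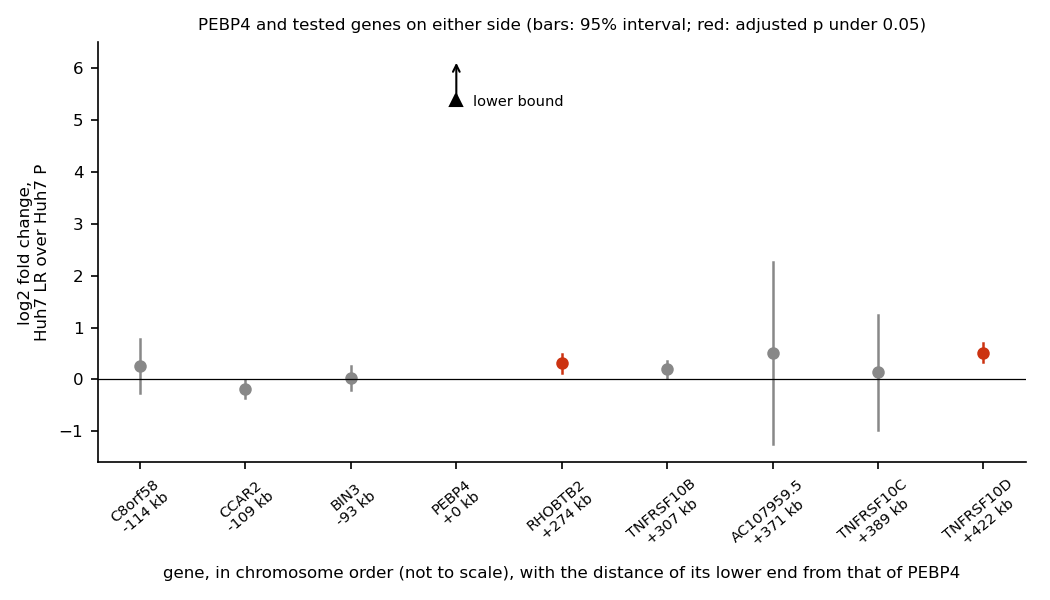
Log2 fold change (Huh7 LR over Huh7 P) of PEBP4 and of 8 tested neighbours in chromosome order, each labelled with the distance in kb of its lower end from that of PEBP4 (RHOBTB2 begins within the PEBP4 span), with 95% intervals from edgeR and red for an adjusted p under 0.05. The PEBP4 triangle is the lower bound of 41.9-fold, RHOBTB2 and TNFRSF10D are above 0, and AC037459.1 (1 count in all Huh7 P libraries) and EGR3 are not drawn.

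The RAF kinases ARAF and BRAF overlapped between the lines. ARAF (X chromosome, 47561100 to 47571920, plus strand) had 31.0, 30.03 and 27.3 CPM in P1, P2 and P3, and 28.7, 35.4 and 33.7 CPM in LR1, LR2 and LR3. BRAF (chromosome 7, 140719327 to 140924928, minus strand) had 83.8, 82.7 and 80.0 CPM in P1, P2 and P3, and 93.0, 77.7 and 97.5 CPM in LR1, LR2 and LR3. LR2 was the highest of the 6 libraries for ARAF and the lowest for BRAF. The log2 fold change was 0.15 for ARAF (SE 0.09, 95% interval -0.06 to 0.35). For BRAF it was 0.12 (SE 0.09, 95% interval -0.07 to 0.31). Both moved with single libraries, since ARAF was at 0.23 without LR1 and 0.092 without LR2, and BRAF at 0.22 without LR2 and 0.054 without LR3. ARAF passed the threshold without LR1 and BRAF without LR2.

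Per length, the ratio of ARAF to BRAF was 1.38, 1.33 and 1.23 in P1, P2 and P3, and 1.07, 1.57 and 1.25 in LR1, LR2 and LR3. The Huh7 LR ratios spanned the Huh7 P ratios on both sides, so the balance of ARAF and BRAF RNA overlapped between the lines, and ARAF was the more abundant of the pair per length in every library. With counts per annotated exon length in place of FPKM, ARAF had a mean of 8.33 and BRAF of 3.51 CPM per kb in Huh7 P, so the size of the ratio depended on the length used.

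KSR1, the scaffold of the cascade, had the largest fall among the 8 genes. It lies on the plus strand of chromosome 17 (27456470 to 27626438). KSR1 had 21.3, 19.1 and 19.3 CPM in P1, P2 and P3, and 17.0, 16.4 and 15.6 CPM in LR1, LR2 and LR3. Every Huh7 LR library was below every Huh7 P library. The log2 fold change was -0.29 (SE 0.09, 95% interval -0.48 to -0.09), a fall of 17.9%. Over the alternatives it ranged from -0.32 to -0.24, and was -0.24 without P1, -0.31 without P2 and -0.25 without LR3, where it fell short of the threshold.

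The MEK genes MAP2K1 and MAP2K2 code for closely related kinases, and MAP2K1 alone was lower in Huh7 LR. MAP2K1 (chromosome 15, 66386817 to 66492312, plus strand) had 80.4, 83.1 and 77.1 CPM in P1, P2 and P3, and 69.0, 74.1 and 68.2 CPM in LR1, LR2 and LR3. The lines did not overlap, and the log2 fold change was -0.19 (SE 0.07, 95% interval -0.34 to -0.04), a fall of 12.2%. Over the alternatives it ranged from -0.22 to -0.16, with -0.17 without LR1 and -0.22 without LR2, and fell short of the threshold in 9 of the 13, among them those without P1, P2, P3, LR1 or LR3. MAP2K2 (chromosome 19, 4090321 to 4124129, minus strand) had 139.9, 138 and 136 CPM in P1, P2 and P3, and 139.5, 152 and 137 CPM in LR1, LR2 and LR3. These values overlapped, with a log2 fold change of 0.05 (SE 0.07, 95% interval -0.10 to 0.20) that was 0.013 without LR2 and 0.081 without LR3. Per length, the ratio of MAP2K2 to MAP2K1 was 3.42, 3.26 and 3.44 in P1, P2 and P3, and 3.97, 4.04 and 3.94 in LR1, LR2 and LR3. The ratio was 3.38 ± 0.097 in Huh7 P and 3.99 ± 0.050 in Huh7 LR (SD, n = 3), with no overlap. Counts per annotated exon length gave means of 26.3 CPM per kb for MAP2K2 and 21.3 for MAP2K1 in Huh7 P, and of 27.3 and 18.7 in Huh7 LR, so the pair was closer on that scale.

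The 70 bases before the start of MAP2K1, KSR1 and MAP2K2 are printed to set MAP2K1 and KSR1, which did not overlap between the lines, beside the MEK paralogue MAP2K2, which did. No sequence is printed for PEBP4. Each window ends directly before whichever start lies further out, that of GENCODE for MAP2K1 and MAP2K2 and that of RefSeq for KSR1, at 27456448. The letters come from the RefSeq promoters of GRCh38.p14, in which 7 of the 8 genes had an entry. Capitals mark the letters GGGCGG (a GC box core), TGACG (a half-site of the cAMP response element) or CCGGAA (an ETS core) on either strand, and no marked letters overlapped. The windows are chr15:66386747-66386816 on the plus strand, chr17:27456378-27456447 on the plus strand and chr19:4124130-4124199 on the minus strand.
MAP2K1: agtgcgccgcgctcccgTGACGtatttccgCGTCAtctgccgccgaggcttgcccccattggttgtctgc
KSR1: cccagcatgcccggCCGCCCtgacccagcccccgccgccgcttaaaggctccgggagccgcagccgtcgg
MAP2K2: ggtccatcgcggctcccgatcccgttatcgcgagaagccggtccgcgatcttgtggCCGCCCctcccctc

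MAP2K1 held TGACG letters at 2 places, which 8.95% of 35116 RefSeq promoter windows of this length held at least once. KSR1 and MAP2K2 each held the GC box core at 1 place, as did 25.7% of the windows, and none of the 3 held the ETS core, which 6.97% of windows did. These matches describe letters only. The compared RefSeq windows end directly before RefSeq starts, whereas the MAP2K1 and MAP2K2 windows end before GENCODE starts. For MAP2K1 the GENCODE start is at 66386817 and the RefSeq start at 66386912, so its window is not matched in position. The MAP2K1 start faces that of TIPIN, a replication fork gene on the opposite strand whose start at 66386746 lies directly before the printed window. The window length of 70 bases was set so that the MAP2K1 window holds no exon of TIPIN, and TIPIN was looked up for that position. TIPIN fell from 16.4, 20.3 and 20.0 CPM in P1, P2 and P3 to 10.5, 11.7 and 12.0 CPM in LR1, LR2 and LR3 (log2 fold change -0.73, SE 0.11, edgeR adjusted p = 2.92e-04). At its other end, MAP2K1 shares 216 exon bases with SNAPC5 on the opposite strand, which fell by 0.25 on the log2 scale (SE 0.08, edgeR adjusted p = 0.0247).

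MAPK3, the gene of ERK1, was nearly level between the lines. It lies on the minus strand of chromosome 16 (30114105 to 30123506). MAPK3 had 55.8, 59.6 and 61.0 CPM in P1, P2 and P3, and 56.1, 60.7 and 57.4 CPM in LR1, LR2 and LR3. All Huh7 LR values lay within the Huh7 P range, and the log2 fold change was -0.02 (SE 0.07, 95% interval -0.17 to 0.13).

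**Figure D3:**
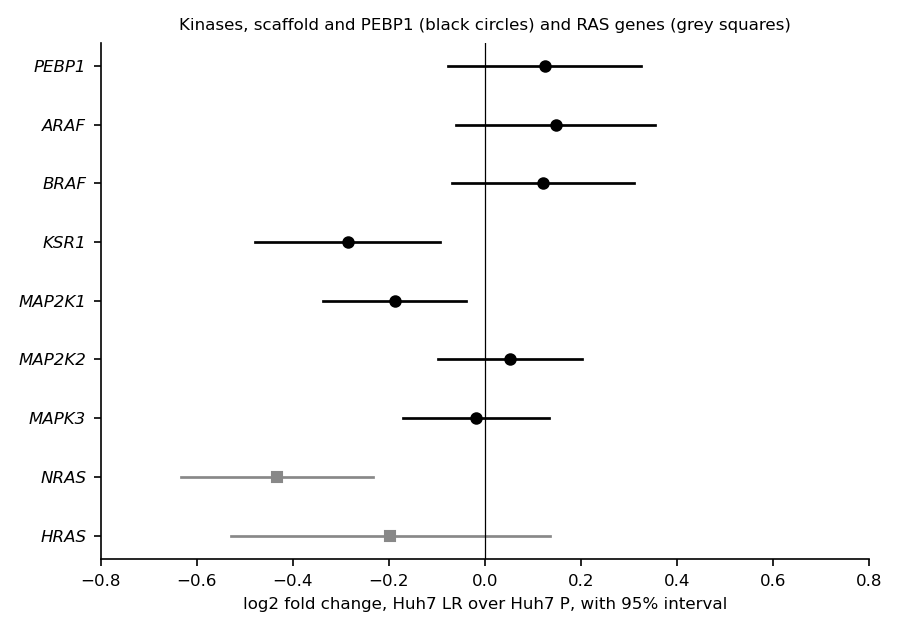
Log2 fold change (Huh7 LR over Huh7 P, horizontal axis) with 95% intervals from edgeR for the 7 genes with counts in both lines (black circles) and for NRAS and HRAS (grey squares). The intervals of KSR1, MAP2K1 and NRAS lie below 0, and those of the other 6 genes cross 0.

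Levels were compared between genes per length, as FPKM (fragments scaled by transcript length and library size). The order was PEBP1, MAP2K2, MAPK3, MAP2K1, ARAF, BRAF, KSR1 and PEBP4 in both lines, and each neighbour in this order was apart in all libraries of a line. The order depended on the length used, since with counts per annotated exon length MAP2K1 stood above MAPK3 in both lines and PEBP4 stood above KSR1 in Huh7 LR. PEBP1 was at 182 ± 4.79 FPKM in Huh7 P and 202 ± 24.3 FPKM in Huh7 LR (SD, n = 3 here and below). MAP2K2 was at 73.1 ± 1.75 and 77.2 ± 3.97 FPKM, and MAPK3 at 33.2 ± 0.908 and 31.6 ± 2.05 FPKM. MAP2K1 was at 21.7 ± 0.829 and 19.3 ± 0.749 FPKM. The RAF genes and their scaffold were lower, with ARAF at 11.5 ± 0.937 and 12.9 ± 1.21 FPKM, BRAF at 8.76 ± 0.201 and 10.1 ± 1.07 FPKM, and KSR1 at 3.33 ± 0.018 and 2.67 ± 0.234 FPKM. PEBP4 was at 0 and 1.98 ± 0.101 FPKM, so that in Huh7 LR it came within 1.35-fold of KSR1. Of the 7 genes with counts in both lines, 5 had a larger SD of CPM in Huh7 LR than in Huh7 P.

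**Figure D4:**
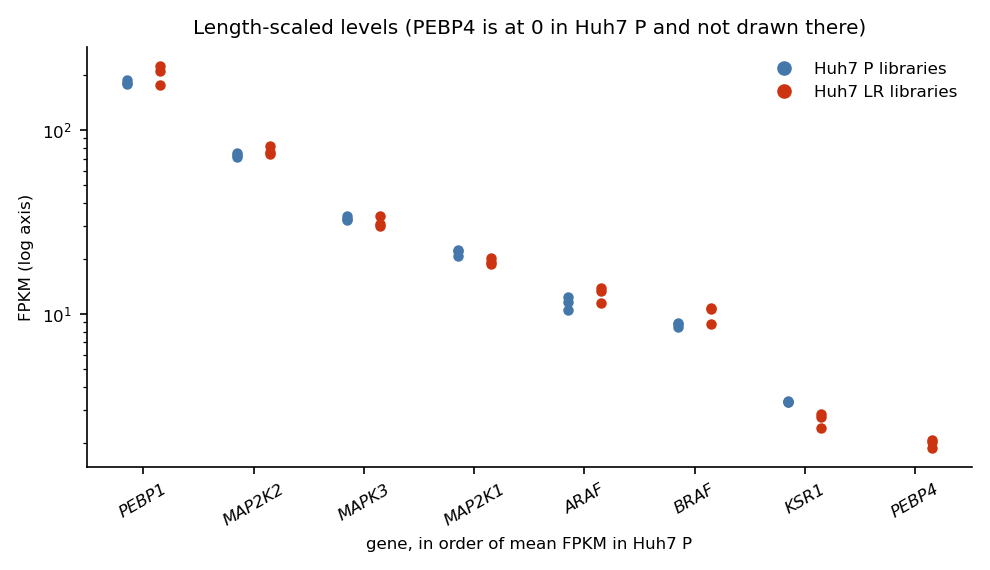
FPKM (log axis) of the 8 genes in each library, in blue for Huh7 P and red for Huh7 LR, ordered by the mean in Huh7 P. The order by FPKM is the same in both lines, from PEBP1 at 182 FPKM in Huh7 P down to PEBP4, which is at 0 in Huh7 P and is drawn for Huh7 LR alone.

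The count divided by the FPKM of a gene reflects the transcript length that the authors' program assigned to it in a library, which the choice of genes did not use. It was tested with limma for 12437 genes and loci with at least 100 counts in every library, of which 0.0804% differed between the lines (0.0322% higher and 0.0482% lower in Huh7 LR, adjusted p under 0.05). None of the 7 genes with a value passed, and 0 of 7 had an unadjusted p under 0.05, against 8.06% of all tested. The log2 difference ranged in size from 0.0030 for PEBP1 to 0.08 for MAPK3 (95% interval -0.006 to 0.17), and was 0.07 for KSR1 (95% interval -0.09 to 0.23). No change of assigned length was detected in these genes, and PEBP4 was too low to be included.

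Other genes of the pathway were read from lists by role. Of 126 genes in the table, 115 were tested, 22 were higher (19.1%) and 38 were lower (33.0%) in Huh7 LR (edgeR, adjusted p under 0.05), beside 23.3% and 22.4% of all genes and loci. The median log2 fold change was -0.09, beside 0.0046 over all genes and loci. Among RAS genes and upstream adaptors, 3 of 17 rose and 7 fell. RASGRP3, an exchange factor that loads RAS with GTP, rose from 1.45, 1.39 and 1.68 CPM to 5.43, 5.78 and 5.41 CPM (log2 fold change 1.88, SE 0.15, edgeR adjusted p = 4.09e-06). SHC2, an adaptor of receptor kinases, rose by 1.05 on the log2 scale (SE 0.08, edgeR adjusted p = 2.51e-06). NRAS fell from 125, 133 and 133 CPM to 103, 82.9 and 104 CPM (log2 fold change -0.43, SE 0.09, edgeR adjusted p = 0.00256). HRAS did not pass, at -0.20 on the log2 scale (edgeR adjusted p = 0.316). It was at -0.059 without LR1, and passed without LR2, at -0.38.

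Of 14 tested brakes on RAS, 6 fell and 1 rose. SPRY2, a Sprouty protein that limits receptor signalling to RAS, fell from 86.6, 92.8 and 85.7 CPM to 47.3, 38.5 and 37.2 CPM (log2 fold change -1.11, SE 0.09, edgeR adjusted p = 5.90e-06). SPRY4, another Sprouty gene, fell by 0.99 on the log2 scale (SE 0.10, edgeR adjusted p = 2.16e-05). SPRED1, which recruits the RAS inactivator neurofibromin, fell by 0.70 (SE 0.15, edgeR adjusted p = 0.00321). Its log2 fold change was -0.93 without LR1 and -0.53 without LR2. Of 40 genes listed as scaffolds, chaperones or RAF phosphatases, with some further kinases such as TESK1, 4 rose and 15 fell. SFN, a 14-3-3 protein of the family that binds phosphorylated RAF, fell from 48.3, 45.9 and 45.1 CPM to 16.4, 15.5 and 15.8 CPM (log2 fold change -1.55, SE 0.07, edgeR adjusted p = 1.73e-07). HSP90AA1, a chaperone of RAF kinases, fell by 0.58 (SE 0.08, edgeR adjusted p = 1.14e-04). TESK1, a kinase of the actin regulator cofilin, rose by 0.72 (SE 0.11, edgeR adjusted p = 3.36e-04).

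Of 7 tested ERK phosphatases, 3 rose and 3 fell. DUSP6, a cytoplasmic phosphatase of ERK, fell from 153, 149 and 166 CPM to 102, 67.8 and 71.5 CPM (log2 fold change -0.96, SE 0.13, edgeR adjusted p = 1.65e-04). DUSP1, a nuclear phosphatase of several MAP kinases, rose from 7.62, 8.77 and 7.83 CPM to 14.3, 16.7 and 15.5 CPM (log2 fold change 0.94, SE 0.11, edgeR adjusted p = 4.71e-05). DUSP4, also nuclear, rose by 0.89 (SE 0.09, edgeR adjusted p = 2.94e-05). Of 15 tested kinases and substrates downstream of ERK, 5 rose and 3 fell. The ETS factor gene ETV5 fell from 95.2, 91.0 and 87.6 CPM to 62.0, 44.5 and 45.1 CPM (log2 fold change -0.85, SE 0.12, edgeR adjusted p = 1.51e-04), and its relative ETV4 fell by 0.61 (SE 0.10, edgeR adjusted p = 6.53e-04). MKNK2, a kinase that acts on translation, rose by 0.41 (SE 0.08, edgeR adjusted p = 0.00132). For DUSP6, SPRY2, ETV4 and ETV5, LR1 was the Huh7 LR library nearest to Huh7 P. Without LR1, their log2 fold changes were -1.17, -1.22, -0.75 and -1.03 in this order. Without LR2, they were -0.84, -1.06, -0.53 and -0.76.

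Of 22 tested genes of other MAP kinase cascades, 6 rose and 4 fell. MAPK4, an atypical MAP kinase, rose from 9.09, 8.22 and 9.54 CPM to 23.5, 21.4 and 22.9 CPM (log2 fold change 1.33, SE 0.10, edgeR adjusted p = 2.04e-06). MAP3K8, a kinase that can activate MEK without RAF, rose by 0.59 (SE 0.12, edgeR adjusted p = 0.00234). MAPK9, the gene of JNK2, fell by 0.81 (SE 0.07, edgeR adjusted p = 6.26e-06).

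**Figure D5:**
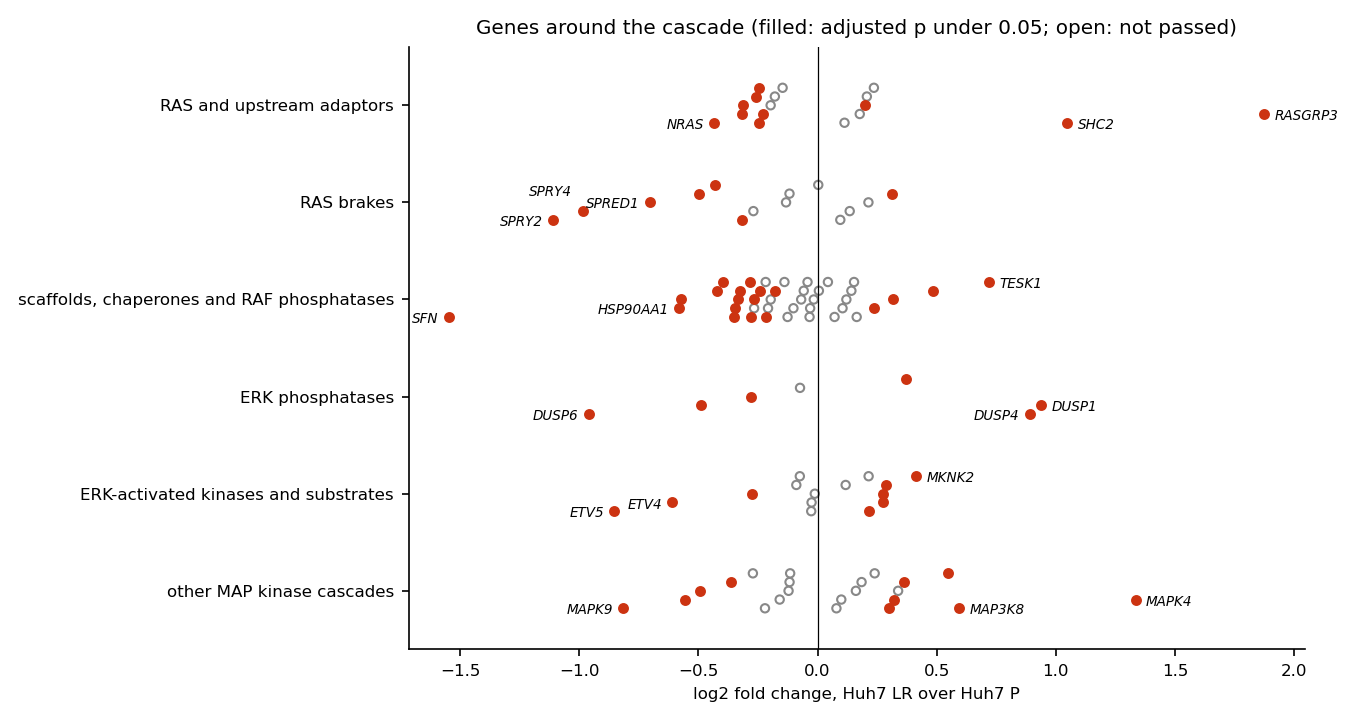
Log2 fold change (Huh7 LR over Huh7 P, horizontal axis) of the 115 tested pathway genes by list, with filled points for an edgeR adjusted p under 0.05 and open points for the rest, and the passing genes named in the text labelled. SPRY2, SFN, DUSP6 and ETV5 lie to the left of 0 and RASGRP3, SHC2 and MAPK4 to the right.

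The genes most like PEBP4 and PEBP1 over the 6 libraries were found by Pearson correlation of log2(CPM + 0.5) among 14053 annotated genes, as a description. For PEBP4 they were DHTKD1 and BPHL (r = 0.9998 each) and SFXN3 (r = 0.9996), and 330 genes exceeded 0.99. DHTKD1 is a mitochondrial dehydrogenase subunit of lysine breakdown, with 51.2, 51.1 and 50.7 CPM in P1, P2 and P3, and 71.8, 70.8 and 71.3 CPM in LR1, LR2 and LR3. These points share the split between the lines, so many genes with small spread scored high. For PEBP1 they were UBAP2L (r = 0.995), ISG20L2 (r = 0.9901) and CSK (r = 0.9897), and 2 genes exceeded 0.99. UBAP2L, a protein of stress granules, was lowest in LR1 (298 CPM) and highest in LR2 (390 CPM), as PEBP1 was.

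Several of the 8 genes could share reads with copies. Pseudogenes named after PEBP1 (3), ARAF (3), BRAF, KSR1 and MAP2K1 (1 each) are annotated and had no row of their own in the table. Exons of BRAF overlap those of NDUFB2 by 1239 bases and exons of PEBP1 overlap those of VSIG10 by 169 bases, each on the opposite strand. On the opposite strand, KSR1 shares 656 exon bases with AC015688.6 and MAP2K1 shares 432 with AC116913.1, and neither of these had a row in the table. KSR1 also shares 432 exon bases with AC015688.4 on its own strand, which had 0 counts in every library. NDUFB2 and VSIG10 had log2 fold changes of 0.08 and 0.16 (edgeR adjusted p = 0.517 and 0.243). The part of shared reads in the values above was not tested.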

How the data were processed

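RNA-seq was performed on 3 Huh7 P and 3 Huh7 LR samples, grouped by their labels. The authors deposited 1 table with a whole-number read count and an FPKM value per gene and library. The deposited counts are not normalized, and in the deposited FPKM values the authors scaled them by length and library size. The submitters' processing notes name TopHat2, Cufflinks, DESeq and the mouse build mm10, whereas all 19974 gene identifiers are human and in GENCODE 29, 19910 with the same symbol. The extraction label describes an insect. The use of strand in counting is not given in the sources used here. The 34 lines of text that name no gene were left out. Coordinates and exon lengths are those of GENCODE 29 (GRCh38).

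Counts were tested with edgeR 4.0.16 in R 4.3.3 (filterByExpr with minimum count 10 and minimum total 15, TMM factors of 0.977 to 1.03, quasi-likelihood test, Benjamini-Hochberg adjustment over 17531 genes and loci). The methods were tested on simulated data. Intervals are 95% and bounds rest on 3 counts. The count per FPKM was tested with limma 3.58.1 on log2 values, centred on each library median. Figures were drawn with matplotlib 3.10.9. The 8 genes and all lists were chosen with earlier results of these data known. Named genes were the 8, HRAS and NRAS, up to 3 called genes per pathway list with the largest absolute fold change and at least 1 CPM in a line, the neighbours of PEBP4, and 3 genes most like PEBP4 and PEBP1. Some further genes of the cascade are not reported here. TIPIN and genes with shared exons lay outside this rule. Alternatives were DESeq2 1.42.0 (size factors or Wald test), other filters on counts, a replicate block, limma on log2 FPKM with a pseudocount of 0.1 or 1 (at least 0.5 FPKM in 3 libraries), levels per annotated exon length and leaving out each library.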

Additional observations from a re-analysis of the deposited data

How the results depend on the processing

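The number of the 8 genes called lower fell from 2 to 1 with no filter, with at least 10 counts in every library and with limma on log2(FPKM + 0.1) or log2(FPKM + 1), since MAP2K1 was not among them. The number called higher fell to 0 with at least 10 counts in every library, where PEBP4 could not enter. Over all genes and loci, 4127 were higher and 3797 lower with no filter, 3989 and 3745 with at least 10 counts in every library, 3430 and 3214 with limma on log2(FPKM + 0.1), and 3445 and 3233 on log2(FPKM + 1). Leaving out a library gave 1 to 3 of the 8 genes higher and 0 to 2 lower, 2 to 4 neighbours of PEBP4 higher and 0 to 1 lower, 15 to 23 pathway genes higher and 28 to 42 lower. Over all genes and loci it gave 3349 to 4135 higher and 3002 to 3984 lower. With more than 2-fold and an adjusted p under 0.001 it gave 551 to 734 higher and 224 to 341 lower, beside 776 and 312 with all libraries. The Wald test of DESeq2 called 1 neighbour of PEBP4 lower. With limma on log2(FPKM + 1), 268 genes and loci were higher and 84 lower by more than 2-fold with an adjusted p under 0.001. The same rule gave 776 and 312 with edgeR on counts. With counts per annotated exon length, 2 of the 8 genes changed rank by level in Huh7 P and 4 in Huh7 LR.

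The direction reversed when a library was left out for MAPK3 (0.0066 without P3 and 0.0055 without LR1, range -0.057 to 0.0066), TNFRSF10C (-0.12 without P1 and -0.30 without LR3, range -0.30 to 0.37), AC107959.5 (-0.065 without P3, range -0.065 to 1.28) and BIN3 (-0.054 without LR2, range -0.054 to 0.069). None of these had passed the threshold, and the cause was not tested. Of 522 values of single genes under alternatives, 490 kept their direction and side of the threshold, 13 lost the threshold and 13 gained it.

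With the replicate number as a block, 1 of the 8 genes was higher and 2 were lower, 22 pathway genes were higher and 39 lower, and 4 neighbours of PEBP4 were higher and 0 lower. Over all genes and loci the block gave 4089 higher and 4033 lower. Deviations of libraries with the same number had correlations of 0.057, 0.067 and 0.025, so the numbers do not pair the samples.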
